A study of Mus musculus with 6 samples.

Results

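The genes described here encode the CatSper channel and further ion transport proteins of sperm. They were selected by gene name from the table of read counts as the CatSper pore subunits Catsper1, Catsper2, Catsper3 and Catsper4, the auxiliary subunits Catsperb, Catsperg1 and Catsperg2, the potassium channel Kcnu1, the proton channel Hvcn1 and the sodium pump subunit Atp1a4. All 10 were present among the 26743 genes of the table, and all 10 passed the filter on low counts. The RNA of entire testes from 3 WT and 3 Trf2-/- males, all at post-natal day 21, was sequenced with 1 library per mouse. The Trf2-/- mice are homozygous for a germline inactivation of Trf2, listed in the table as Tbpl1, which encodes a TBP-related transcription factor, so every cell of the testis carried the mutation. The comparison asks which testis transcripts differ when Trf2 is inactive at the age when the first round spermatids are formed. The study describes the mice of each genotype as independent biological replicates. In whole testis, fewer cells of a type and less RNA per cell cannot be told apart.

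CatSper is the calcium channel of the sperm flagellum. Its pore is formed by CatSper1, CatSper2, CatSper3 and CatSper4 together, each encoded by its own gene, and loss of any of them in mice leaves sperm unable to acquire the vigorous hyperactivated beat needed for fertilization. The auxiliary proteins, among them those of Catsperb and the Catsperg genes, assemble with the pore in the flagellar membrane. The channel opens at alkaline intracellular pH, and Kcnu1 (Slo3) carries the pH-sensitive potassium current that sets the membrane potential of mouse sperm. Hvcn1 is a voltage-gated proton channel that is also used by phagocytes and B cells, and Atp1a4 is the catalytic alpha subunit of the sodium pump particular to male germ cells. Catsper2 transcripts are known from spermatocytes onward, whereas those of Catsper1, Catsper3 and Catsper4 are known mainly from spermatids.

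Reads counted on genes numbered from 21582123 to 29859347 per WT mouse and from 15187062 to 24530489 per Trf2-/- mouse. Levels are given as CPM, the counts scaled to the TMM-corrected library size. A gene without any read may still be present at up to 3 counts, which is 0.105 to 0.144 CPM in WT and 0.119 to 0.19 CPM in Trf2-/- mice, and this limit covers counting error only. The inactivated gene Tbpl1 was present at 295 ± 12.5 CPM in WT and at 61.0 ± 4.60 CPM (SD, n = 3) in Trf2-/- testes, a log2 fold change of -2.27. Trf2-/- mouse 3 had the smallest library and stood apart from its genotype in some pachytene spermatocyte genes but not in others. Ccna1 and Pgk2 were at 13.8% and 17.7% of the WT mean in this mouse and at 40.3% to 50.3% in the other two. Adam2 and Ldhc were at 40.6% and 47.6% in mouse 3, against 49.15% to 72.7% in the other two. Piwil1 and Hspa2 were at 83.0% and 84.9% in mouse 3, close to the 83.4% to 91.7% of the other two. Summed over marker genes, mouse 3 was the highest of all mice for spermatogonia, early spermatocytes and Sertoli cells (367.1, 1506 and 1861 CPM). It was the lowest of all mice for pachytene spermatocytes and for round and elongating spermatids. The members' values are therefore also given without this mouse. The quasi-likelihood test of edgeR was run over 16924 genes with Benjamini-Hochberg adjustment. A call of down- or up-regulation required an adjusted p under 0.05 together with a fold change of 2 or more.

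The CatSper genes were lower in Trf2-/- testes, and the size of the difference varied widely among subunits of the same channel. Catsper1 and Catsper4 were present at 7.69% and 4.72% of their WT means, Catsper3 at 23.4%, Catsper2 and Catsperb at 54.4% and 56.4%, and Catsperg1 and Catsperg2 at 80.5% and 76.0%. Kcnu1 was at 40.6% of WT, while Hvcn1 and Atp1a4 did not pass the test. By edgeR's test 4 of the 10 genes were called down-regulated, namely Catsper1, Catsper3, Catsper4 and Kcnu1, where 4.3% of all tested genes were called in this direction. None of the 10 was called up-regulated, against 0.609% of all tested genes. Without the fold threshold 8 of the 10 were lower past the adjusted p and 0 were higher, against 20.2% and 11.2% of all tested genes. The same 8 genes were lower in every Trf2-/- mouse than in every WT mouse, which held for 26.8% of all tested genes. The median log2 fold change was -0.85 over the 10 genes and 0.04 over all tested genes. With Trf2-/- mouse 3 left out, 4 of the 10 genes were again called down-regulated and 8 passed the adjusted p. Catsper1, Catsper3 and Catsper4 each averaged under 1 CPM over the 6 mice, and among the 1804 tested genes below that level 12% were called down-regulated. With 0 to 5 reads per Trf2-/- mouse, Catsper1, Catsper3 and Catsper4 passed the filter on low counts through the WT mice alone. Their calls could therefore only be of down-regulation.

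**Figure D1:**
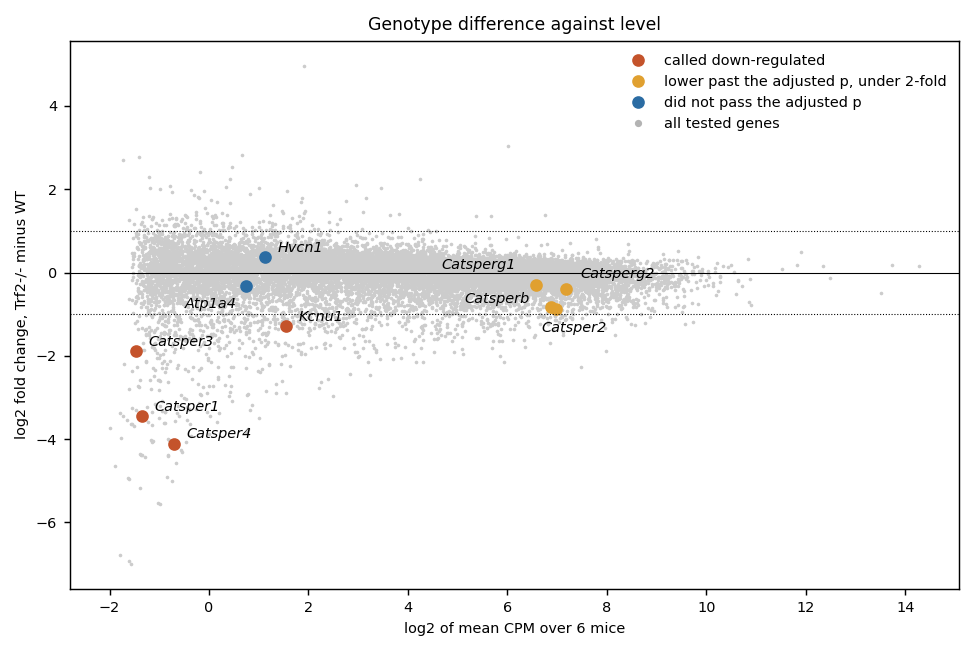
Log2 fold change (Trf2-/- minus WT, vertical axis) against the log2 of the mean CPM over the 6 mice (horizontal axis) for all tested genes (grey) and the 10 named genes (coloured by test outcome), with dotted lines at a 2-fold difference. Catsper1, Catsper3 and Catsper4 lie at the low end of the level range with log2 fold changes of -3.45, -1.89 and -4.11, whereas Catsper2, Catsperb, Catsperg1 and Catsperg2 lie at high levels with differences between -0.87 and -0.31.

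Within the pore, Catsper2 was the abundant transcript and fell the least. Catsper2 (ENSMUSG00000033486, chromosome 2:121218367-121240317, minus strand, build NCBIM37, 15 exon blocks) had 167.7, 158.0 and 162.8 CPM in WT mice 1 to 3 and 97.9, 101.2 and 66.6 CPM in Trf2-/- mice 1 to 3. The genotypes did not overlap, and Trf2-/- mouse 3 had the lowest value. The mean fell from 162.8 ± 4.86 to 88.6 ± 19.1 CPM (SD, n = 3), a log2 fold change of -0.87 (SE 0.13, adjusted p = 0.00155 by edgeR), or -0.70 without Trf2-/- mouse 3. A stretch of 18 exon bases, 0.5% of the gene's exons, lies opposite an exon of Pdia3, which encodes a disulfide isomerase of the endoplasmic reticulum and did not differ by edgeR's test (log2 fold change -0.03, adjusted p = 0.7). The pseudogenes Gm14000 and Gm14001 lie within Catsper2 and share 0 exon bases with it.

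The other pore genes were near the detection limit in Trf2-/- testes. Catsper1 (ENSMUSG00000038498, chromosome 19:5335741-5344153, plus strand, 12 exon blocks), whose protein has a histidine-rich N-terminus, had 21, 18 and 16 reads in WT mice and 1, 3 and 0 reads in Trf2-/- mice. Catsper4 (ENSMUSG00000048003, chromosome 4:133767885-133783298, minus strand, 12 exon blocks) had 20, 43 and 24 reads in WT and 2, 2 and 0 reads in Trf2-/- mice. Catsper3 (ENSMUSG00000021499, chromosome 13:55885929-55910359, plus strand, 8 exon blocks) had 17, 13 and 14 reads in WT and 5, 5 and 0 reads in Trf2-/- mice. In each of the 3 genes no Trf2-/- mouse reached the lowest WT mouse, and Trf2-/- mouse 3 had no read at all, which allows up to 0.19 CPM.

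After scaling, Catsper1 fell from 0.730 ± 0.0391 to 0.0561 ± 0.0659 CPM (SD, n = 3; log2 fold change -3.45, SE 0.53, adjusted p = 0.00176 by edgeR). Catsper4 fell from 1.17 ± 0.475 to 0.0550 ± 0.0478 CPM (log2 fold change -4.11, SE 0.61, adjusted p = 0.00147 by edgeR). Since these genes had at most 3 reads in any Trf2-/- mouse, the fitted fold changes depend on the prior count, and the summed reads give a direct measure. Scaled to library size, the 55 WT reads of Catsper1 against 4 gave a ratio of 11.7 (exact binomial 95% interval 4.32 to 44.4), and the 87 WT reads of Catsper4 against 4 a ratio of 18.5 (6.97 to 69.4). These intervals cover counting error only, without the spread between mice. Without Trf2-/- mouse 3 the log2 fold changes were -3.06 for Catsper1 and -3.73 for Catsper4. With each mouse left out in turn that of Catsper1 ran from -4.64, without Trf2-/- mouse 2, to -3.06, and both genes were called with any single mouse left out.

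For Catsper3 the difference was smaller and less certain. The mean fell from 0.587 ± 0.0870 to 0.138 ± 0.119 CPM (SD, n = 3; log2 fold change -1.89, SE 0.53, adjusted p = 0.0249 by edgeR), and 44 WT reads against 10 gave a ratio of 3.74 (exact binomial 95% interval 1.86 to 8.34). Leaving out Trf2-/- mouse 3 brought the log2 fold change to -1.47 and kept the call. Leaving out WT mouse 1, 2 or 3 or Trf2-/- mouse 1 raised the adjusted p of edgeR to 0.0778, 0.0546, 0.0742 and 0.0517, so the call was lost in 4 of the 6 fits without 1 mouse.

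**Figure D2:**
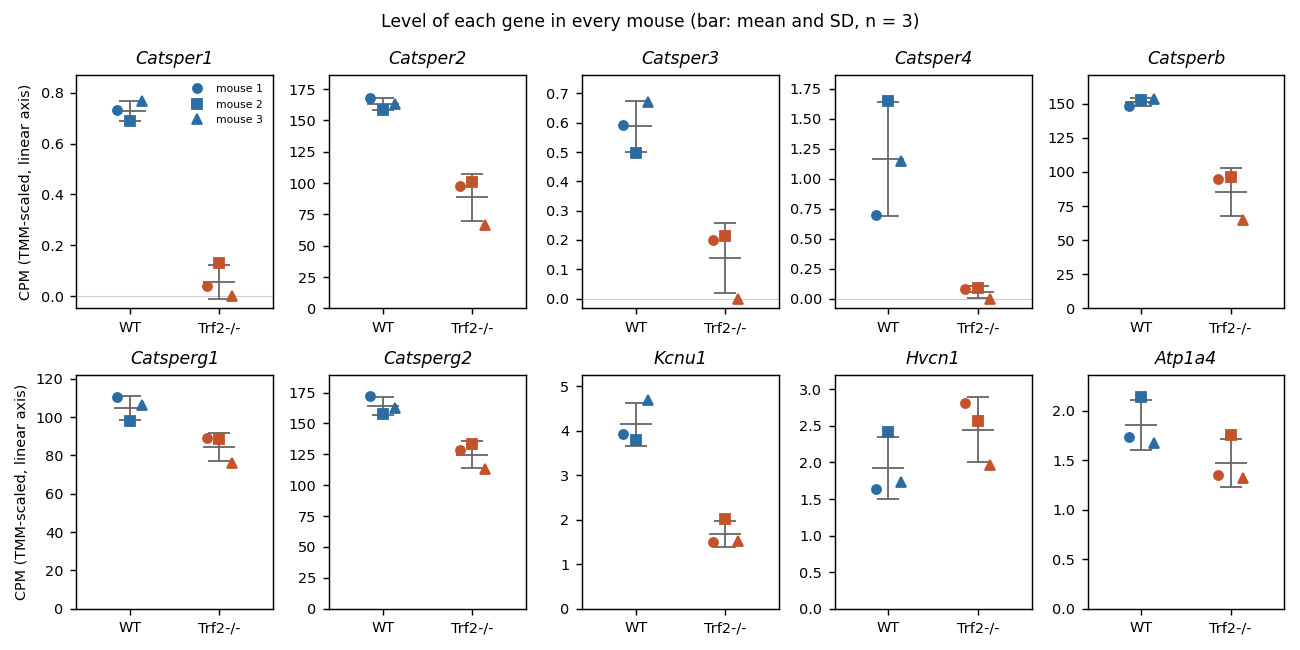
CPM on linear axes in each WT (blue) and Trf2-/- (orange) mouse for the 10 genes, with a separate vertical axis per gene, symbols for mouse 1, 2 and 3, and bars for the mean and SD (n = 3). The genotypes are separated for Catsper1 to Catsper4, Catsperb, Catsperg1, Catsperg2 and Kcnu1 and overlap for Hvcn1 and Atp1a4, and Trf2-/- mouse 3 is the lowest of the 6 for each of the 7 CatSper genes.

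Trf2 belongs to the family of the TATA-binding protein, although the study states that it lacks selective binding to the TATA element. The upstream sequences of Catsper2, Catsper3, Catsper4 and Catsperb are shown because these genes differed so widely in level and in fold change. Each is the 250 bases before the annotated start in RefSeq (build GRCm38.p6, to which these coordinates belong), written 5′ to 3′ on the gene's strand in lower case, with searched motifs in capitals. The promoter of Catsper2 lies at chr2:121413793-121414042 (minus strand), that of Catsper3 at chr13:55784329-55784578 (plus strand), that of Catsper4 at chr4:134227384-134227633 (minus strand), and that of the auxiliary subunit gene Catsperb, whose fold change was close to that of Catsper2, at chr12:101404423-101404672 (plus strand).
Catsper2: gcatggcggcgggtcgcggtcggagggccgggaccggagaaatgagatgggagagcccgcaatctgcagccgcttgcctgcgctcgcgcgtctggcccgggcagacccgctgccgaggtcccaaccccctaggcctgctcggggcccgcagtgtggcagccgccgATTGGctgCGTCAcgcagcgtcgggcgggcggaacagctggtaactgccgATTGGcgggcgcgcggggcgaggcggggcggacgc
Catsper3: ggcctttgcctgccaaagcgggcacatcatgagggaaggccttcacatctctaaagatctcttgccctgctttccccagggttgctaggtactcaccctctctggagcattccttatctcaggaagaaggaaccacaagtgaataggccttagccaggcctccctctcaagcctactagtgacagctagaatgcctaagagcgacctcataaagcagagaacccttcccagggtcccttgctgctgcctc
Catsper4: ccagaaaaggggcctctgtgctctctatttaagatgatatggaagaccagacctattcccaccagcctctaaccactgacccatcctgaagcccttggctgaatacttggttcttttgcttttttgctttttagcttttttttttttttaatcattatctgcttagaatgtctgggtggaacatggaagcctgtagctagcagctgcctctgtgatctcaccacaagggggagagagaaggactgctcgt
Catsperb: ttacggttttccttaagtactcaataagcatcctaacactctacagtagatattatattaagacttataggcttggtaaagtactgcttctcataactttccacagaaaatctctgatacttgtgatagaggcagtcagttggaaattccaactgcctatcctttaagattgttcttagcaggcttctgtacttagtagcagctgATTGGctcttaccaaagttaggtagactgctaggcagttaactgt
The Catsper2 sequence was 74.8% G and C, Catsper3 54.0%, Catsper4 45.2% and Catsperb 38.0%, against a median of 52.4% over the 32851 promoters of the table. Both strands were searched for the TATA box TATAAA, the CCAAT box, and the letters TGACG, the core of the cAMP response element that CREM-family factors bind. These letter strings do not overlap each other. In Catsper2 the reverse complement of TGACG began 77 bases before the start, and the reverse complement of CCAAT began 85 and 35 bases before it. Pdia3, on the opposite strand, overlaps the 5′ end of Catsper2. The base content and matches of this window were not assigned to either gene. In Catsperb the reverse complement of CCAAT began 45 bases before the start. None of the 3 strings occurred in the Catsper3 and Catsper4 windows, nor in that of Atp1a4, whereas 1 of the 2 annotated starts of Catsperg1 had TATAAA 149 bases upstream. Over all 32851 promoters, TATAAA occurred in 12.4%, CCAAT in 33.8% and TGACG in 17.8%. The table held promoters for 6 of the 10 genes, and those of Catsper1, Catsperg2, Kcnu1 and Hvcn1 were not used here. A match is a description of the letters and not a binding site.

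The auxiliary subunit genes all passed the adjusted p without reaching a 2-fold difference. Catsperb (ENSMUSG00000047014, chromosome 12:102642883-102864219, plus strand, build NCBIM37, 27 exon blocks) encodes the beta subunit, which has an extended extracellular part. It had 148.2, 152.4 and 153.5 CPM in WT mice and 94.6, 96.4 and 64.9 CPM in Trf2-/- mice. The genotypes did not overlap, and the mean fell from 151.3 ± 2.81 to 85.3 ± 17.7 CPM (SD, n = 3; log2 fold change -0.82, SE 0.13, adjusted p = 0.00169 by edgeR), or by 0.66 on the log2 scale without Trf2-/- mouse 3. Trf2-/- mouse by Trf2-/- mouse, Catsperb stood at 62.5%, 63.7% and 42.9% of its WT mean and Catsper2 at 60.1%, 62.1% and 40.9%.

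Catsperg1 and Catsperg2 both lie on the minus strand of chromosome 7 and encode closely related gamma subunits. Catsperg1 (ENSMUSG00000049676, 29966340 to 29999054) had 110.3, 98.0 and 106.5 CPM in WT and 88.9, 88.7 and 75.9 CPM in Trf2-/- mice. Catsperg2 (ENSMUSG00000049123, 30482238 to 30512051) had 172.3, 157.5 and 162.7 CPM in WT and 128.4, 133.1 and 112.8 CPM in Trf2-/- mice. Every Trf2-/- mouse was below every WT mouse for both genes, again with the lowest value in Trf2-/- mouse 3.

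Catsperg1 fell by 0.31 on the log2 scale (SE 0.07, adjusted p = 0.0125 by edgeR) and Catsperg2 by 0.39 (SE 0.07, adjusted p = 0.00262 by edgeR). Without Trf2-/- mouse 3 the log2 fold changes were -0.23 and -0.32. Without WT mouse 1 the adjusted p of Catsperg1 rose to 0.0559. The counts of the 2 genes are uncertain as separate values, because 41.0% of the 50-base windows of a Catsperg1 transcript occur in Catsperg2 and 38.0% of those of Catsperg2 occur in Catsperg1, and the handling of such reads in the counting was not stated. No 50-base window of Catsper1 to Catsper4, Catsperb or Kcnu1 was found in a transcript of another gene.

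Kcnu1 (ENSMUSG00000031576, chromosome 8:26960095-27048405, plus strand, 29 exon blocks) was called down-regulated. It had 3.94, 3.79 and 4.70 CPM in WT mice, from 113, 99 and 98 reads, and 1.51, 2.02 and 1.52 CPM in Trf2-/- mice, from 38, 47 and 24 reads. The genotypes did not overlap, and Trf2-/- mouse 3 was level with mouse 1. The mean fell from 4.14 ± 0.489 to 1.68 ± 0.291 CPM (SD, n = 3; log2 fold change -1.29, SE 0.19, adjusted p = 0.00132 by edgeR), and the call was made with any single mouse left out, at log2 fold changes from -1.46 to -1.19.

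Hvcn1 (ENSMUSG00000064267, chromosome 5:122656813-122692306, plus strand, 8 exon blocks) did not pass the test. It had 1.64, 2.41 and 1.73 CPM in WT and 2.82, 2.57 and 1.96 CPM in Trf2-/- mice, and the genotypes overlapped (log2 fold change 0.36, SE 0.22, adjusted p = 0.238 by edgeR, or 0.49 on the log2 scale without Trf2-/- mouse 3). In the 3′ region 549 exon bases, 15.4% of the gene's exons, are shared with Tctn1, a gene of the ciliary transition zone on the opposite strand that had 61.0 ± 5.88 CPM in WT and 68.2 ± 6.08 CPM in Trf2-/- mice. Whether the counting used the strand was not stated, so part of the Hvcn1 reads may come from Tctn1. Of 8 macrophage markers 3 were higher past the adjusted p and 0 lower, against 11.2% and 20.2% of all tested genes. Their summed level was 147 to 171.7 CPM in WT and 165.8 to 328.9 CPM in Trf2-/- mice. The highest value of both this sum and Hvcn1 was in Trf2-/- mouse 1. Among the WT mice, by contrast, Hvcn1 was highest in mouse 2 at 2.41 CPM, where this sum was lowest at 147 CPM. The part of these cells and of Tctn1 in the Hvcn1 level was not tested.

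Atp1a4 (ENSMUSG00000007107, chromosome 1:174153644-174188545, minus strand, 23 exon blocks) had 1.74, 2.15 and 1.68 CPM in WT and 1.35, 1.76 and 1.33 CPM in Trf2-/- mice. The ranges overlapped through Trf2-/- mouse 2, and the difference did not pass the test (log2 fold change -0.32, SE 0.21, adjusted p = 0.264 by edgeR, or -0.26 on the log2 scale without Trf2-/- mouse 3). The ratio of WT to Trf2-/- from 141 and 96 reads was 1.25 (exact binomial 95% interval 0.957 to 1.64, counting error only).

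Per kilobase of gene length, the 10 transcripts fell into 2 ranges. In WT testes Catsper2 had the highest level at 48.6 CPM per kilobase, followed by Catsperb at 40.7, Catsperg2 at 35.3, Catsperg1 at 17.0 and Kcnu1 at 1.13 CPM per kilobase, and no neighbours in this order overlapped among the 3 WT mice. Catsper4 at 0.555, Hvcn1 at 0.541, Atp1a4 at 0.535, Catsper3 at 0.432 and Catsper1 at 0.354 CPM per kilobase followed, and each of these overlapped with the next. The pore subunits, which the channel contains together, thus differed in transcript level by 137 times between Catsper2 and Catsper1, by 113 times between Catsper2 and Catsper3, and by 87.7 times between Catsper2 and Catsper4. Catsper2 and Catsperb differed by 1.19 times. The order depends on the length used, here the deposited gene length. With the length of the longest coding transcript, an alternative chosen after seeing the data, Catsper2 was again first, but Catsperg2 at 41.5 and Catsperb at 40.7 CPM per kilobase overlapped and Catsperg1 was at 28.6 CPM per kilobase. The levels of both Catsperg genes also carry the uncertainty of their shared windows.

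In Trf2-/- testes Catsperg2 at 26.8, Catsper2 at 26.4 and Catsperb at 22.96 CPM per kilobase overlapped across mice. Within each Trf2-/- library Catsper2 was above Catsperb, as in each WT library, whereas with these lengths Catsperg2 was above Catsperb in every Trf2-/- library and below it in every WT library. Catsperg1 followed at 13.7, then Hvcn1 at 0.688, Kcnu1 at 0.459 and Atp1a4 at 0.426 CPM per kilobase, with overlaps from Hvcn1 to Atp1a4. Catsper3 at 0.101, Catsper1 at 0.0272 and Catsper4 at 0.0262 CPM per kilobase were last and overlapped. The level of Catsper2 was 1.15 times that of Catsperb, and no ratio to the other pore genes is given, since these rest on 4 to 10 reads with 0 in Trf2-/- mouse 3.

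**Figure D3:**
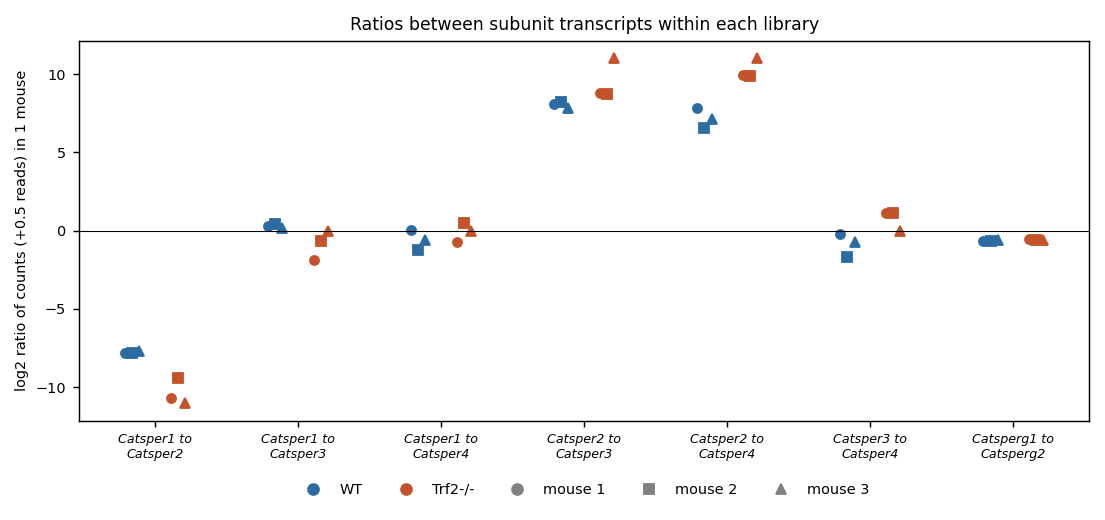
Log2 ratio of the counts of paired CatSper genes within each library, after adding 0.5 reads to each count, for WT (blue) and Trf2-/- (orange) mice, with a symbol for each mouse. The ratios of Catsper2 to Catsper3 and to Catsper4 are higher and that of Catsper1 to Catsper2 lower in all Trf2-/- mice, those of Catsper1 to Catsper4 overlap, and those of Catsperg1 to Catsperg2 differ by 0.08.

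Ratios within a library need no scaling between mice, and they were used to compare the subunits with each other. The log2 ratio of Catsper1 to Catsper2 reads was -7.76 ± 0.07 in WT and -10.38 ± 0.87 (SD, n = 3) in Trf2-/- mice, a difference of -2.61. That of Catsper2 to Catsper4 was 7.19 ± 0.66 in WT and 10.29 ± 0.65 in Trf2-/- mice, a difference of 3.11. Neither pair of ranges overlapped, and in each Trf2-/- library the reads of Catsper1 and Catsper4 were fewer relative to those of Catsper2 than in any WT library.

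The log2 ratio of Catsper2 to Catsper3 differed by 1.46, without overlap, but by 0.70 without Trf2-/- mouse 3, in which Catsper3 had no read. For Catsper1 to Catsper4, both near the detection limit in Trf2-/- mice, the ratio differed by 0.50 and the ranges overlapped (exact permutation p = 0.5, two-sided). The ratio of Catsperg1 to Catsperg2 was -0.65 ± 0.04 in WT and -0.56 ± 0.03 in Trf2-/- mice. With 3 mice per genotype the smallest p of an exact permutation test is 0.1, which all ratios other than Catsper1 to Catsper4 reached, with an adjusted p of 0.117 over the 7 ratios. The values of Catsper1, Catsper3 and Catsper4 ratios depend on the added reads: with 2 added reads the differences were -1.55 for Catsper1 to Catsper2, 0.70 for Catsper2 to Catsper3 and 2.07 for Catsper2 to Catsper4.

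Further CatSper components, listed apart from the 10 genes, were also lower. All 6 table entries of this list, 2 of which carry the same name Als2cr11, were lower past the adjusted p, against 20.2% of all tested genes. Their median was -0.92 on the log2 scale, and 2 were called down-regulated, against 4.3% of all tested genes. The called genes were Efcab9, a calcium-binding regulator of the channel, and 1700019N12Rik, the gene named Catsperz in RefSeq. Efcab9 had 61, 69 and 46 reads in WT and 15, 28 and 6 reads in Trf2-/- mice (log2 fold change -1.62, SE 0.33, adjusted p = 0.0063 by edgeR). With 6 reads in Trf2-/- mouse 3, Efcab9 passed the filter on low counts only with the help of the WT mice, which limits its call. 1700019N12Rik fell from 157.6 ± 5.13 to 69.2 ± 15.5 CPM (SD, n = 3; log2 fold change -1.18, SE 0.13, adjusted p = 0.000541 by edgeR). Both genes were called without Trf2-/- mouse 3 as well.

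Tmem146, which encodes the delta subunit, and Slco6c1, which encodes an anion transporter of the CatSper complex, were lower without reaching a 2-fold difference. Tmem146 fell from 113.1 ± 3.52 to 59.3 ± 11.2 CPM (SD, n = 3; log2 fold change -0.93) and Slco6c1 from 168.5 ± 3.45 to 89.3 ± 19.5 CPM (log2 fold change -0.91). The 2 entries named Als2cr11 had log2 fold changes of -0.67 and -0.60. The log2 fold changes of Catsper2 and Catsperb, -0.87 and -0.82, lay between those of these 4 entries.

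Of 4 entries for partners of Slo potassium channels only 2, Kcnma1 and Lrrc55, had enough reads to be tested, and neither differed past the adjusted p. Lrrc52, the known auxiliary subunit of Kcnu1 in sperm, had 2, 0 and 1 reads in WT and 0 in each Trf2-/- mouse, and no difference was detectable at this depth.

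Among 13 tested genes of pH, bicarbonate and cAMP control, 5 were lower past the adjusted p, 0 were higher and 3 were called down-regulated, with a median log2 fold change of -0.14. The shares over all tested genes were 20.2% lower, 11.2% higher and 4.3% called down-regulated. Adcy10, the soluble adenylyl cyclase that bicarbonate activates in sperm, fell from 121.3 ± 2.93 to 38.9 ± 11.2 CPM (SD, n = 3; log2 fold change -1.63, SE 0.17, adjusted p = 0.000461 by edgeR). Slc9a10, the sperm-specific sodium/proton exchanger, fell from 184.6 ± 6.56 to 88.8 ± 19.5 CPM (log2 fold change -1.05), and Slc26a8, an anion transporter of the sperm annulus, from 144.6 ± 7.86 to 69.8 ± 12.5 CPM (log2 fold change -1.05). The calls of Slc9a10 and Slc26a8 were lost without Trf2-/- mouse 3 and with library size in place of TMM factors, and that of Adcy10 was made in both fits.

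The other subunits and regulators of the sodium pump gave a different count. Of 11 tested genes 0 were lower and 3 were higher past the adjusted p, against 20.2% and 11.2% of all tested genes. Their median was 0.15 on the log2 scale, with 0 calls at 2-fold. The beta subunits Atp1b1 and Atp1b3 had log2 fold changes of 0.15 and 0.04 and did not pass. With library size in place of TMM factors, which moved the median of all tested genes from 0.04 to 0.13, 6 of the 11 genes were higher past the adjusted p and 0 lower.

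Among the 13 tested genes of calcium extrusion and stores, 2 were lower and 5 higher past the adjusted p, with a median of 0.21 on the log2 scale and no call at 2-fold. Of 18 other calcium channel genes 3 were lower and 1 was higher, and 2 were called down-regulated. These were Cacna1h, a T-type channel gene, which fell from 206.1 ± 14.4 to 72.8 ± 16.9 CPM (SD, n = 3; log2 fold change -1.5, SE 0.14, adjusted p = 0.000331 by edgeR), and Pkdrej, a polycystin-family gene of the sperm head, which fell from 85.5 ± 3.66 to 29.8 ± 11.3 CPM (log2 fold change -1.5). With library size in place of TMM factors the lower and higher genes numbered 1 and 9 in the list of extrusion and stores and 3 and 4 in that of channels. Over all of these lists 7 of the 63 genes that could be tested were called lower and 0 higher, 16 were lower and 9 higher past the adjusted p, and the median log2 fold change was 0.05. Over all tested genes 4.3% were called down-regulated, 20.2% were lower and 11.2% higher past the adjusted p, so the shares of the pathway genes lower and higher past the adjusted p were near the background.

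**Figure D4:**
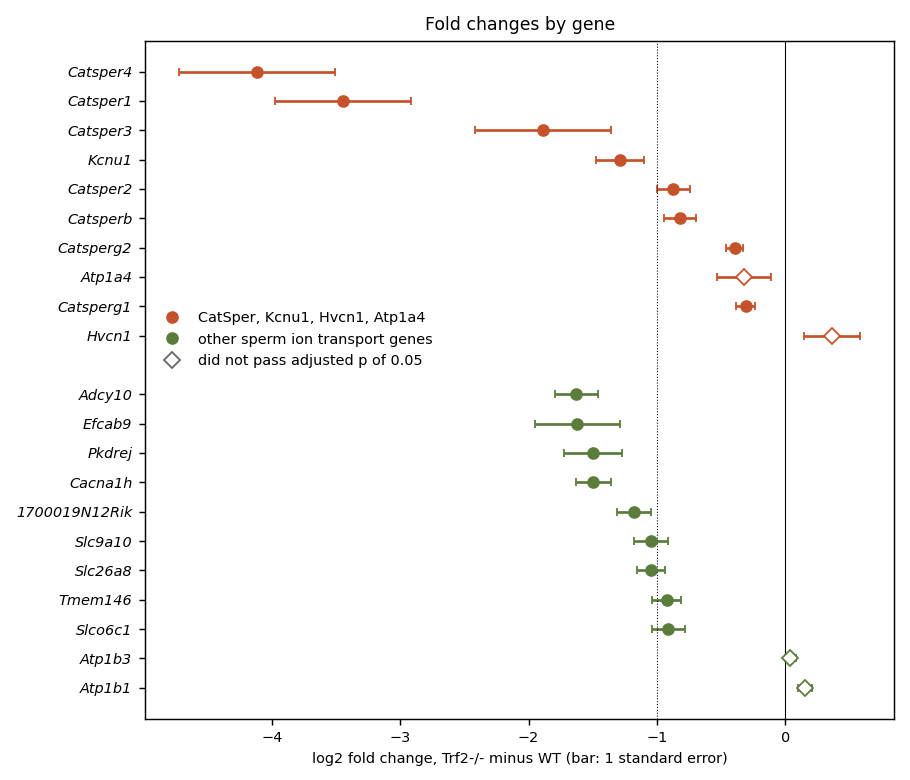
Log2 fold change (Trf2-/- minus WT, horizontal axis) with 1 standard error from the edgeR fit for the 10 genes (orange) and for further sperm ion transport genes (green), with a dotted line at a 2-fold decrease and open diamonds for genes that did not pass the adjusted p of 0.05. The 10 genes run from -4.11 for Catsper4 to 0.36 for Hvcn1, with the widest error bars on Catsper1, Catsper3 and Catsper4, and the green genes from -1.63 for Adcy10 to 0.15 for Atp1b1.

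Markers of pachytene spermatocytes and spermatids moved with the CatSper genes, while 0 markers of earlier germ cells were lower past the adjusted p. Of 6 round spermatid markers 5 were called down-regulated, at a median log2 difference of -2.03 and a summed level of 17.2 to 20.2 CPM in WT and 7.97 to 10.3 CPM in Trf2-/- mice. Spaca1 did not pass (log2 fold change -0.22), and Acrv1, an acrosomal protein gene, had 33, 41 and 24 reads in WT and 1, 3 and 0 reads in Trf2-/- mice. All 4 tested elongating spermatid markers were called down-regulated, with the summed level of the list at 6.86 to 8.58 CPM in WT and 0.948 to 1.63 CPM in Trf2-/- mice. The defining genes Tnp1, Prm2, Prm3 and Smcp had 0 to 4 reads per mouse of either genotype. Over all tested genes 4.3% were called down-regulated. Acrv1, Spaca3, Tssk2, Akap4 and Gapdhs had at most 7 reads in any Trf2-/- mouse. They passed the filter on low counts through the WT mice alone, so only a call of down-regulation was open to them. Izumo1, Odf1 and Oaz3 had 3 to 17 reads per Trf2-/- mouse and did not reach the level of the filter in every Trf2-/- mouse. They too passed only with the help of the WT mice, which limits their calls of down-regulation as well.

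All 6 pachytene spermatocyte markers were lower past the adjusted p and 3 were called. Their median log2 difference was -0.88, at a summed level of 5326 to 5762 CPM in WT and 3407 to 4233 CPM in Trf2-/- mice. In each of these 3 lists the lowest sum was that of Trf2-/- mouse 3. Of 6 early spermatocyte markers 2 were higher and 0 lower, with a median of 0.23, and of 7 spermatogonium markers 1 was higher and 0 lower, with a median of 0.09. Of the somatic lists, 3 of 6 Sertoli, 1 of 6 Leydig and 1 of 5 peritubular markers were higher and 0 lower past the adjusted p, and with library size in place of TMM factors 6, 1 and 3 were higher. Over all tested genes 11.2% were higher and 20.2% lower past the adjusted p, so 1 marker of 5 or 6 is near that share. The part of cell composition in the differences of the CatSper genes was not tested.

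**Figure D5:**
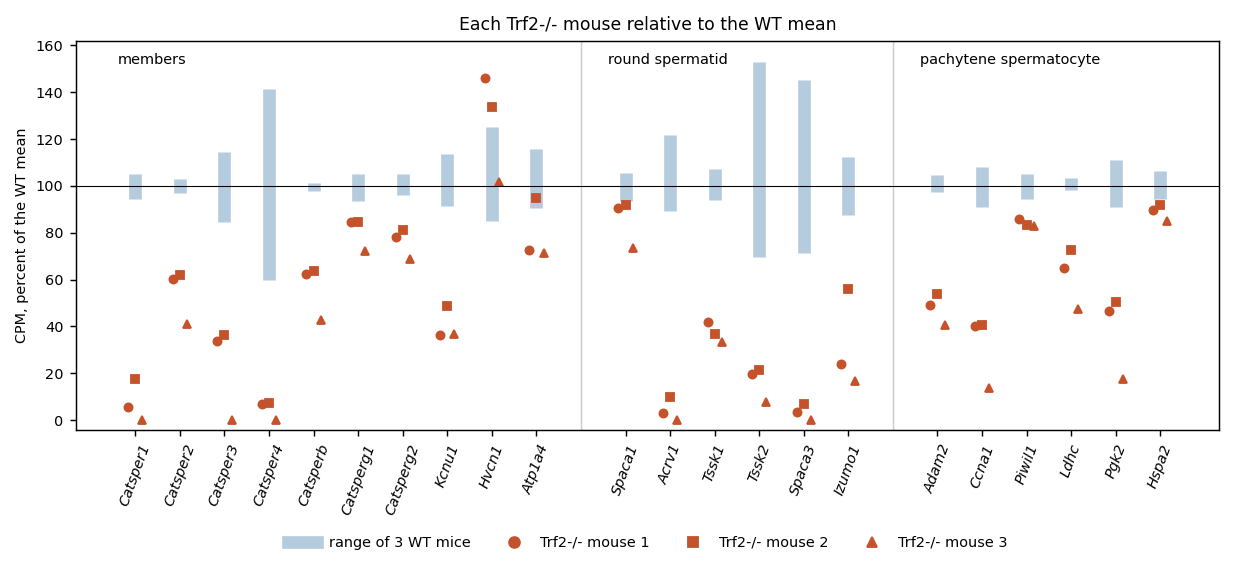
CPM of each Trf2-/- mouse as a percentage of the WT mean for the 10 genes, 6 round spermatid markers and 6 pachytene spermatocyte markers, with blue bars for the range of the 3 WT mice. Catsper1 and Catsper4 lie between 0% and 17.6%, as do Acrv1 and Spaca3, Catsper2 and Catsperb lie between 40.9% and 63.7%, and Trf2-/- mouse 3 is the lowest for most genes of all 3 groups.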

How the data were processed

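Total RNA from testes was depleted of ribosomal RNA and sequenced as single-end 50 base reads with a stranded kit. Per the labels and the submitters' processing notes, the authors used CASAVA 1.8.2, TopHat2 2.0.10, Bowtie2 2.1.0, HTSeq 0.5.4p3 and DESeq2 1.0.19 with build mm9 (NCBIM37), and they deposited raw counts for 26743 genes. The strand setting, the handling of reads shared between genes and the annotation release are not given in the sources used here. The 12 normalized columns were not used.

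The deposited counts were tested with edgeR 4.0.16 in R 4.3.3 (filterByExpr, TMM, glmQLFit, glmQLFTest, Benjamini-Hochberg adjustment over 16924 genes, biological coefficient of variation 0.0838), after tests on simulated data. Standard errors were derived from the fold change and the F statistic. CPM per kilobase used the deposited gene lengths. Coordinates, exons and shared 50-base windows were taken from GENCODE annotation of NCBIM37, in which all 10 genes had the coordinates of the table. The labels state no pairing of the mice. Mice with the same replicate number did not share deviations from their genotype means (correlations -0.10, -0.03 and -0.10), which cannot show how the mice were matched. No libraries were duplicates. Alternatives were other scalings, filters and thresholds, DESeq2 1.42.0, a replicate block and leaving out each mouse. The genes and lists were chosen with earlier results of these data known. The genes named are the 10, Tbpl1, overlapping genes, markers, called genes of the pathway lists and a few listed always, of which some are not reported here; Kcnma1, Lrrc55 and Als2cr11 were named after their values were seen.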

Additional observations from a re-analysis of the deposited data

How the results depend on the processing

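No fold change of the 10 genes changed sign under any alternative, and Catsper1, Catsper4 and Kcnu1 were called in every fit that tested them. Catsper3 lost its call with the replicate block (log2 fold change -1.90, adjusted p = 0.0613 by edgeR), at an adjusted p under 0.01 and without 4 of the 6 mice, and the adjusted p of Catsperg1 passed 0.05 without WT mouse 1. The number of the 10 genes called down-regulated ran from 3 to 4 with each mouse left out, and the number past the adjusted p from 6 to 8. Requiring at least 10 counts in every mouse removed Catsper1, Catsper3 and Catsper4, which left 1 gene called and 5 past the adjusted p. Without a fold threshold 8 were called. The replicate block, although the labels state no pairing of the mice, gave 725 down- and 76 up-regulated genes and 3 of the 10 genes, and DESeq2's Wald test 689, 74 and 4. No ratio changed direction under any alternative. With the replicate block the differences of the ratios were those without it, and 3 pairs cannot give a p under 0.25.

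Over all genes, 727 were called down- and 103 up-regulated. Down-regulated genes numbered 436 with at least 10 counts in every mouse, 3423 without a fold threshold and 616 to 896 with each mouse left out. Up-regulated genes numbered 158 by library size alone, 159 with at least 1 count as the filter, 61 with at least 10 counts in every mouse, 1889 without a fold threshold, 32 at an adjusted p under 0.01 and 53 to 177 with each mouse left out. The share of calls that were down-regulated was 87.6%, 79.7% by library size alone and 77.7% without Trf2-/- mouse 3. Of the pathway genes, 16 were called down- and 9 up-regulated without a fold threshold, and 5 to 9 down-regulated with each mouse left out, 5 of them without Trf2-/- mouse 3. With 0 to 5 reads per Trf2-/- mouse, depth limits the fold changes of Catsper1, Catsper3 and Catsper4.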
